A study of Mus musculus with 4 samples.

Results

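The mitochondrial protein import and processing genes were followed in B16F10, a pigmented melanoma line of the mouse, by RNA sequencing after 6 h with olive oil or with ozonated olive oil, each at 0.01% of the medium. Members were all rows of the count table whose symbol begins with Timm or Tomm and a digit, together with Samm50, Mtx1, Mtx2, Grpel1, Grpel2, Pam16, Pmpca, Pmpcb, Hspa9, Hspd1, Hspe1, Lonp1 and Clpp. Of 39 matching rows, 37 had at least 10 counts in at least 2 libraries and were kept, out of 27179 rows in all. Tomm20l had 0 or 1 count in each library and Timm8a2 had 0 counts in every library, so both were left out. Of the 37 genes kept, 36 encode proteins and 1, Tomm6os, is an RNA annotated opposite Tomm6. The rule does not use the values of the comparison beyond that minimum. Cells of both groups were labelled wild type, grown in the same serum-containing medium, and all came from the same line. Each group had 2 libraries, and nothing in the labels says that they were separate cultures. The p-values therefore cover the spread between these 4 samples alone, and that spread may be technical. Cells that received no oil were not analysed here.

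Nearly all mitochondrial proteins are made in the cytosol and carried into the organelle as precursors. The TOM complex forms the entry gate of the outer membrane, and from it precursors pass to the SAM complex, which inserts barrel proteins into that membrane, to small TIM chaperones of the intermembrane space, or to the TIM22 and TIM23 translocases of the inner membrane. A motor built around mitochondrial HSP70 pulls precursors into the matrix, where a peptidase removes the targeting sequence, the chaperonin HSP60 with its partner HSP10 folds the protein, and the LONP1 and CLPP proteases degrade proteins that fail to fold. The pathway is known to be sensitive to cell stress, and some of its chaperones and proteases are classical targets of the mitochondrial unfolded protein response.

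The libraries held 22539486 to 30038784 counts, the largest number in ozonated oil library 2. The 37 members took 0.562% and 0.566% of all counts with plain oil, and 0.4999% and 0.586% with ozonated oil. Markers of melanocytes (7 genes) summed to between 19541 and 26048 CPM (counts divided by the TMM-scaled library size and multiplied by 1000000), while 4 keratinocyte markers summed to 0.921 to 24.4 CPM, 4 fibroblast markers to 5.61 to 7.41, 3 leukocyte markers to at most 0.0840 and 2 endothelial markers to at most 0.263. In a bulk sample, fewer cells of a type and less RNA per cell cannot be told apart. Among the members, the ozonated oil libraries differed from each other. On the log2(CPM + 0.5) scale, the median of the 37 members against the plain oil mean was -0.21 in ozonated oil library 1. In ozonated oil library 2 it was 0.13, and in the plain oil libraries -0.045 and 0.045. Of the 36 protein-coding members, 32 were higher in ozonated oil library 2 than in ozonated oil library 1, by a median of 0.42 on the log2(CPM + 0.5) scale, where 50.5% of all 12675 tested genes were higher.

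The promoters of the 4 members with the smallest p-values are shown because these genes carry the differences described below and 1 of them differed in the opposite direction from the others. They are RefSeq windows on GRCm38.p6 (the assembly of mm10), from 250 bases before to 50 bases after an annotated start site, written 5′ to 3′ on the strand of the gene. Capitals mark CACGTG, the E-box bound by MYC and related factors, and CCGGAAGT, a site of the ETS family. Timm9 lies on the minus strand (chr12:71136626-71136925), Tomm5 on the minus strand (chr4:45108064-45108363), Timm10 on the plus strand (chr2:84826771-84827070) and Lonp1 on the minus strand (chr17:56626854-56627153).
Timm9: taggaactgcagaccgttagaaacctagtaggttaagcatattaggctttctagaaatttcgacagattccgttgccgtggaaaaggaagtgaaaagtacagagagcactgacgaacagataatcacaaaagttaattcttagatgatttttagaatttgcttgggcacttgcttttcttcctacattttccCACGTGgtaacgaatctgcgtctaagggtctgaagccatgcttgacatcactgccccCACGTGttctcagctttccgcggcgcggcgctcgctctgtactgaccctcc
Timm10: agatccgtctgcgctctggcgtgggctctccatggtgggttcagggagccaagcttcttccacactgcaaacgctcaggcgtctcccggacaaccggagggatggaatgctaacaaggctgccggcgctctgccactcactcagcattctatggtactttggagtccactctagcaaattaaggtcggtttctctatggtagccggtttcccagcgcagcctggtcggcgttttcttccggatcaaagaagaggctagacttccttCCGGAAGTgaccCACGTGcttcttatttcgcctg
Tomm5: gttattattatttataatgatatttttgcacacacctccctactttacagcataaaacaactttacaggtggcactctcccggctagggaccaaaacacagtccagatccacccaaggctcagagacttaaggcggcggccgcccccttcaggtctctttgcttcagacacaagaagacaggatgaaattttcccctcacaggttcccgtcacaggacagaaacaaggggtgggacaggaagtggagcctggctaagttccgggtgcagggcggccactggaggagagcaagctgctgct
Lonp1: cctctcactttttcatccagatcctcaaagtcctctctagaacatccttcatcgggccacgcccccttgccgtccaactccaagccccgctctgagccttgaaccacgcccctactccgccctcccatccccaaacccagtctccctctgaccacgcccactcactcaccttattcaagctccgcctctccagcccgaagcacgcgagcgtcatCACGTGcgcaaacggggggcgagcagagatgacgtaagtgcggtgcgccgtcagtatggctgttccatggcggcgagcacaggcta

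The Timm9 window held 2 E-boxes, whose first bases lay 58 bases and 1 base upstream of the start site of that window. This start site lies 33 bases inside the outermost annotated end of Timm9, and measured from that end the first E-box begins 25 bases upstream and the second 32 bases downstream. For the other 3 genes the start site of the window is the end of the annotated span. The Lonp1 window held 1, starting 36 bases upstream, and the Timm10 window held 1 E-box and 1 ETS site, both after the start site. The Tomm5 window held neither. Of the 37 members, 32 had a window in the RefSeq table, 35 windows in all. CACGTG, which reads the same on both strands, was present in 7 of these 35 windows (20.0%), against 10.0% of the 12340 windows of tested genes and 7.15% of all 32851 windows. The 7 genes with it were Timm9, Timm10, Timm8a1, Hspd1, Tomm20, Lonp1 and Tomm6os. CCGGAAGT, searched on both strands, was present in 7 windows (20.0%), against 8.34% of the windows of tested genes. The sequence GCGCATGC, the core of sites of NRF1, a regulator of genes for mitochondrial proteins, was in 2 windows (5.71%), those of Grpel1 and Timm13, against 5.32%. TGATGNAA, a core of sites shared by ATF4 and CHOP, was found in 0 of the 35, against 2.23% of the windows of tested genes. No pair of these motifs overlapped in the 4 windows shown. The median GC content was 59.7% in the members' windows and 52.7% in all windows, and shares at equal GC content were not compared. A match is a description of the letters and not a bound site, and members with and without an E-box were both found among the genes that were lower.

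Across the set, no member passed the test over all genes. With the quasi-likelihood test of edgeR, 0 of 37 members had an adjusted p below 0.05, where 0% of all 12675 tested genes did, and the smallest adjusted p among the members was 0.223. At an unadjusted p below 0.05 there were 4 members (10.8%), against 9.82% of all tested genes, and this share is near the background. They were 3 lower ones, Timm9, Timm10 and Tomm5, where 5.29% of all genes were lower at this level, and 1 higher one, Lonp1, where 4.54% were higher. The median log2 change (ozonated over plain oil) of the members was -0.013, against 0.035 for all tested genes. Of the 37 members, 22 had a lower fitted value (59.5%), against 46.0% of all tested genes, and 15 a higher one.

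Both ozonated oil libraries lay below both plain oil libraries for 13 members (35.1%), against 20.0% of all tested genes. They lay above for Lonp1 alone, 1 of 37 members, against 19.9% of all tested genes. The groups thus did not overlap for 14 members in all, where they did not for 40.0% of tested genes, and they overlapped for the other 23. The gene-by-gene difference between libraries 2 and 1 recurred in part across the groups. Over the 36 protein-coding members, its plain oil values had a Pearson correlation of 0.78 with its ozonated oil values (0.53 over all tested genes). This correlation does not measure a shift common to the members. Of the 36, 26 were higher in plain oil library 2 than in library 1 (72.2%, against 52.1% of all tested genes). With ozonated oil 32 were (88.9%, against 50.5%). The members share their libraries and are not independent draws, and no test of the whole list was made. With plain oil library 1 left out 1 member had an unadjusted p below 0.05 (2.70%, against 3.37% of all genes in that fit), and with plain oil library 2 left out 2 had (5.41% against 5.60%). Without ozonated oil library 1 the number was 12 (32.4%, against 24.1% of all genes in that fit), 5 of them lower, and the median log2 change was 0.14. Without ozonated oil library 2 it was 6, all lower (16.2% against 12.95%), and the median was -0.22. The number of members thus moved with that of all genes, but their median did not. In the last 2 fits the median over all genes was -0.019 and -0.022. The swing of the members' median was therefore not shared by all genes. Lower fitted values were found for 14 members in the former fit and for 35 in the latter.

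**Figure D1:**
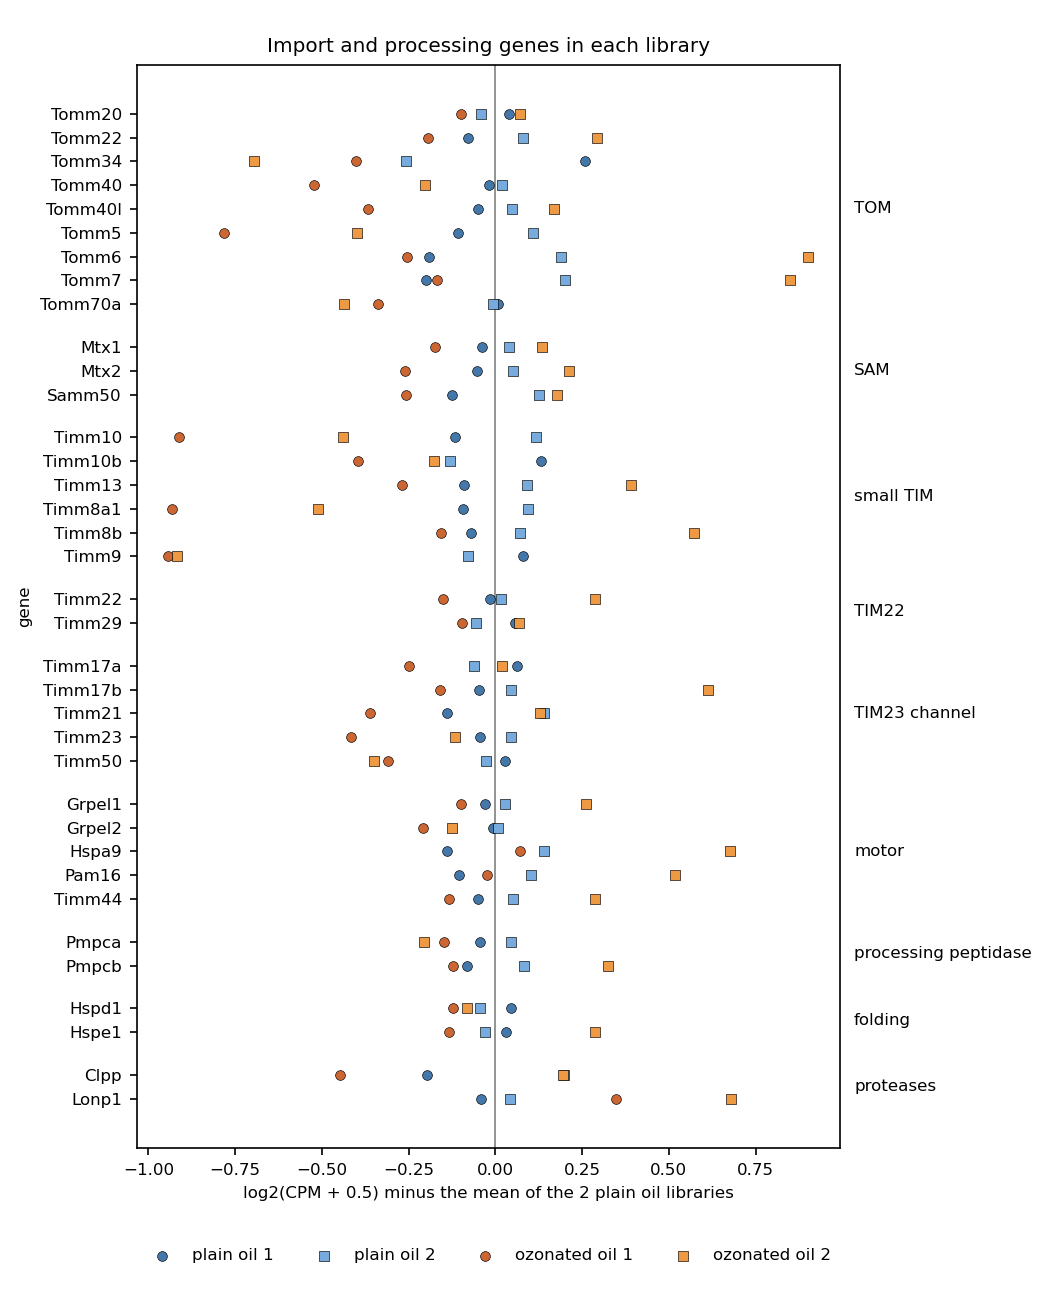
Level of each of the 36 protein-coding members in each library, as log2(CPM + 0.5) minus the mean of the 2 plain oil libraries, grouped by the complex or step the protein belongs to. Points for ozonated oil library 2 lie to the right of those for ozonated oil library 1 for 32 of 36 genes, while both lie to the left of the plain oil points for Timm9, Timm10, Timm8a1 and Tomm5.

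The largest differences toward lower values were in the small TIM chaperones. These are small proteins of the intermembrane space that assemble into rings, and they hand hydrophobic precursors from the TOM gate to the inner membrane. Timm9 (chromosome 12, 71123172 to 71136708) was at 45.6 and 40.9 CPM with plain oil and at 22.2 and 22.6 CPM with ozonated oil. The groups did not overlap, and the libraries of each group lay close together. The means were 43.2 ± 3.38 and 22.4 ± 0.284 CPM (SD, n = 2 per group), with a log2 change of -0.95 ± 0.18 (SE). The edgeR test gave an adjusted p of 0.223 and an unadjusted p of 0.00189, which ranked Timm9 at 104 of 12675 genes. DESeq2 called it, with an adjusted p of 0.0114, as 1 of 37 members, against 2.14% of all tested genes. Its log2 change ran from -1.02 to -0.87 with any 1 library left out. Without ozonated oil library 1 its edgeR adjusted p was 0.0491. Exons of Timm9 overlap those of Tomm20l on the opposite strand, and Tomm20l had at most 1 count in a library.

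Timm10, which forms the ring together with TIMM9, was at 19.7 and 23.3 CPM with plain oil and at 11.1 and 15.6 CPM with ozonated oil. The groups did not overlap. Its log2 change was -0.68 ± 0.25 (SE, edgeR adjusted p = 0.472). The ratio of Timm9 to Timm10 CPM was 2.32 and 1.76 with plain oil and 1.996 and 1.45 with ozonated oil, so the ratio overlapped between the groups while the level of each gene did not. Timm8a1, on chromosome X, whose human counterpart is mutated in a deafness and dystonia syndrome, was at 6.36 and 7.31 CPM with plain oil and at 3.33 and 4.63 with ozonated oil. It was the least abundant coding member, with 150 and 174 counts against 76 and 130, and its log2 change was -0.77 ± 0.32 (SE, edgeR adjusted p = 0.515). Timm13, the ring partner of the TIMM8 proteins, behaved otherwise, at 98.1 and 111 CPM with plain oil and at 86.6 and 137 CPM with ozonated oil. The ratio of Timm8a1 to Timm13 CPM was 0.0648 and 0.0656 with plain oil and 0.0385 and 0.0337 with ozonated oil, and was thus lower in both ozonated oil libraries.

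The remaining small TIM genes did not separate as clearly. Timm8b, a second partner of TIMM13, was at 54.3 and 60.0 CPM with plain oil and at 51.1 and 85.1 CPM with ozonated oil, and ozonated oil library 2 alone lay above the plain oil libraries. Timm10b, which tethers the chaperone ring to the TIM22 translocase, was at 48.8 and 40.6 CPM against 33.7 and 39.4 CPM. Its groups lay apart by a small margin, with a log2 change of -0.29 ± 0.20 (SE, edgeR adjusted p = 0.722). Of the 6 small TIM members, 4 had lower values and groups that did not overlap, where 20.0% of all tested genes did, and 2 had higher values with overlapping groups. At an edgeR unadjusted p below 0.05 there were 2, Timm9 and Timm10 (33.3% of the 6, against 9.82% of all tested genes). With edgeR 0 of the 6 passed over all genes, while DESeq2 called Timm9. The median log2 change of the 6 was -0.49, which rests on genes that were grouped by function and carries no test.

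**Figure D2:**
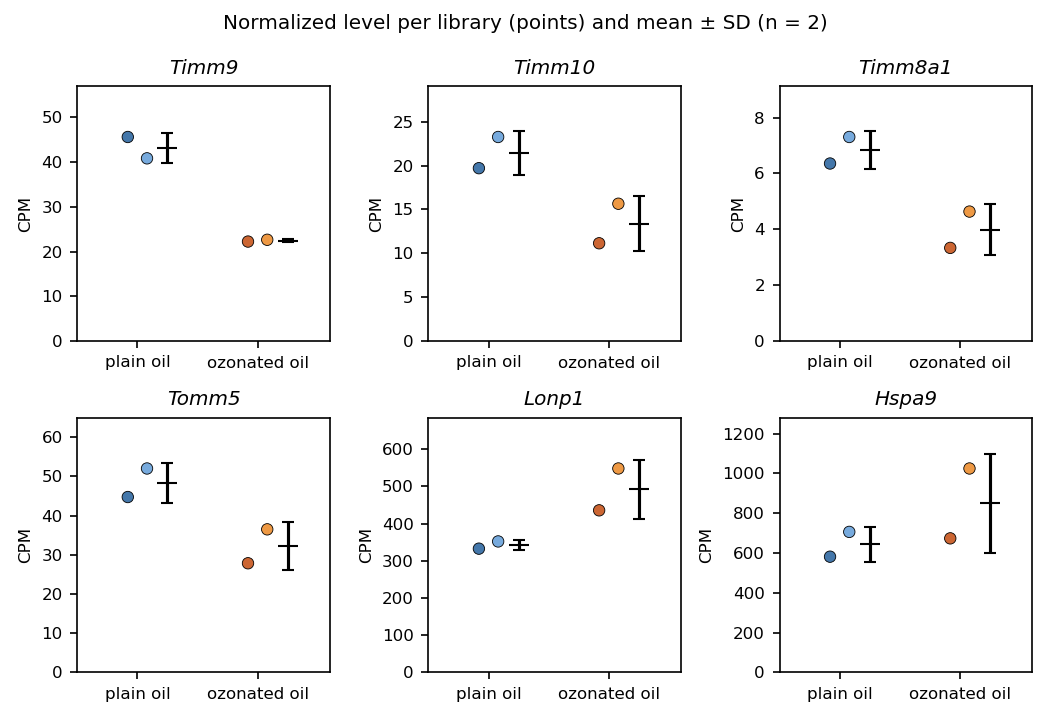
CPM of Timm9, Timm10, Timm8a1, Tomm5, Lonp1 and Hspa9 in each library (points, library 1 on the left of each group) with the group mean ± SD (black, n = 2), each panel on its own linear axis from 0. Both ozonated oil points lie below both plain oil points for Timm9, Timm10, Timm8a1 and Tomm5 and above them for Lonp1, while Hspa9 overlaps.

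In the TOM complex, the channel, one receptor and one small subunit were lower in both ozonated oil libraries and other subunits were not. Tomm40, which forms the pore, was at 122 and 125 CPM with plain oil and at 85.9 and 108 CPM with ozonated oil, with a log2 change of -0.36 ± 0.19 (SE, edgeR adjusted p = 0.620). Tomm70a, the receptor for carrier proteins with internal signals, was at 257 and 255 CPM against 202 and 189 CPM. The libraries of each group lay close together, and the log2 change was -0.39 ± 0.17 (SE, edgeR adjusted p = 0.552). Tomm5, a small subunit that helps to assemble the pore, was at 44.7 and 52.0 CPM against 27.8 and 36.5 CPM, with a log2 change of -0.59 ± 0.21 (SE, edgeR adjusted p = 0.453, unadjusted p = 0.0319).

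The other receptors of the gate overlapped between the groups. Tomm20, the main receptor for targeting sequences and the most abundant TOM member by CPM, was at 341 and 323 CPM with plain oil and at 310 and 349 CPM with ozonated oil, with a log2 change of -0.012 ± 0.19 (SE). Its edgeR adjusted p was 0.991. Tomm22, the central receptor, was at 168 and 187 CPM against 155 and 217 CPM. The 2 smallest subunits beside Tomm5 went the other way in one library. Tomm7 was at 69.5 and 91.9 CPM against 71.0 and 144 CPM, and Tomm6 at 49.6 and 64.7 CPM against 47.4 and 106 CPM. For both, ozonated oil library 1 lay at or near the lowest plain oil value and ozonated oil library 2 above every other library. Tomm6 shares exonic sequence with Tomm6os on the opposite strand, which was at 0.833 to 1.07 CPM in the 4 libraries. Exons of Tomm6 also overlap those of Usp49 on the opposite strand and Gm21981 on the same strand. As the strand setting of the counting is not given, reads in the shared stretches cannot be told apart.

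Tomm34, a cytosolic co-chaperone of HSP70 and HSP90 that holds precursors, is named with the TOM genes but is no part of the pore. It was at 40.3 and 28.0 CPM with plain oil and at 25.3 and 20.5 CPM with ozonated oil. The groups did not overlap, but the plain oil libraries differed from each other by more than the nearest libraries of the 2 groups did. Its log2 change was -0.58 ± 0.25 (SE, edgeR adjusted p = 0.533), and it was -0.29 without plain oil library 1 and -0.81 without plain oil library 2. Tomm40l, a second gene for a pore protein, overlapped between groups, at 40.5 and 43.4 CPM against 32.4 and 47.3 CPM. Of the 9 genes named TOM, 6 had lower values (66.7%, against 46.0% of all tested genes), and for 4 of them the groups did not overlap (44.4% of the 9, against 20.0% of all tested genes). The other 3 had higher values. Neither edgeR nor DESeq2 called any of the 9 over all genes. Tomm5 alone had an unadjusted p below 0.05 with edgeR (11.1% of the 9, against 9.82% of all tested genes).

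The differences of the SAM complex genes were within the spread between libraries. Samm50, the barrel-inserting subunit, was at 212 and 252 CPM with plain oil and at 193 and 261 CPM with ozonated oil, with a log2 change of -0.030 ± 0.22 (SE, edgeR adjusted p = 0.979). The ozonated oil libraries lay on either side of both plain oil libraries. The same arrangement was found for its partners Mtx1, at 48.7 and 51.4 CPM against 44.2 and 54.9 CPM, and Mtx2, at 75.2 and 80.8 CPM against 64.9 and 90.4 CPM.

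At the inner membrane, the TIM23 translocase imports precursors with a cleavable targeting sequence. Timm50, its receptor on the side of the intermembrane space, was at 84.4 and 81.2 CPM with plain oil and at 66.7 and 64.8 CPM with ozonated oil. The groups did not overlap and each was narrow, with a log2 change of -0.33 ± 0.16 (SE, edgeR adjusted p = 0.577). Timm23, the core subunit, was at 60.2 and 64.1 CPM against 46.4 and 57.2 CPM, with a log2 change of -0.26 ± 0.18 (SE, edgeR adjusted p = 0.739). Its core partners overlapped. Timm17a was at 148 and 136 CPM against 119 and 144 CPM, with a log2 change of -0.11 ± 0.18 (SE, edgeR adjusted p = 0.901). Timm17b, its paralog on chromosome X, was at 33.6 and 35.9 CPM against 31.0 and 53.4 CPM. The ratio of Timm17a to Timm17b CPM was 4.41 and 3.79 with plain oil and 3.85 and 2.69 with ozonated oil, which overlaps. Timm21, which links TIM23 to the TOM gate, also overlapped, at 23.6 and 28.7 CPM against 20.2 and 28.5 CPM. Of these 5 genes 4 had lower values (80%, against 46.0% of all tested genes), and neither edgeR nor DESeq2 called any over all genes. With edgeR 0 of the 5 had an unadjusted p below 0.05, against 9.82% of all tested genes.

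The TIM22 translocase, which inserts carrier proteins delivered by the small TIM rings, was represented by its pore gene and 1 accessory subunit. Timm22 was at 67.1 and 68.5 CPM with plain oil and at 61.0 and 82.8 CPM with ozonated oil, with a log2 change of 0.085 ± 0.20 (SE, edgeR adjusted p = 0.934). The ozonated oil libraries again lay on either side of the plain oil libraries. Timm29 was at 49.5 and 45.7 CPM against 44.5 and 49.9 CPM, also overlapping.

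In the import motor, the HSP70 gene Hspa9 (chromosome 18, 34937414 to 34954351) was at 582 and 706 CPM with plain oil and at 674 and 1025 CPM with ozonated oil. Ozonated oil library 1 lay between the plain oil libraries and ozonated oil library 2 above them. The means were 644 ± 88.1 and 849 ± 248 CPM, with a log2 change of 0.40 ± 0.27 (SE, edgeR adjusted p = 0.730), and the change was 0.057 without ozonated oil library 2. Its nucleotide exchange factors were steadier. Grpel1 was at 88.6 and 92.3 CPM against 84.5 and 108 CPM, and Grpel2, a second exchange factor, at 34.3 and 34.7 CPM against 29.8 and 31.6 CPM. The Grpel2 groups did not overlap, and the ratio of Grpel1 to Grpel2 CPM was 2.58 and 2.66 with plain oil and 2.84 and 3.43 with ozonated oil. Pam16, a regulator of the motor, was at 19.3 and 22.3 CPM against 20.4 and 29.9 CPM, and Timm44, which tethers HSP70 to the channel, at 70.0 and 75.2 CPM against 66.2 and 88.8 CPM. Both overlapped. Of the 5 motor genes, 4 had higher values and 1 a lower one (20%, against 46.0% of all tested genes). With edgeR 0 had an unadjusted p below 0.05, against 9.82% of all tested genes, and DESeq2 called none over all genes.

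The matrix peptidase that removes targeting sequences is built from 2 subunits. Pmpcb, the catalytic one, was at 130 and 145 CPM with plain oil and at 126 and 172 CPM with ozonated oil, with a log2 change of 0.12 ± 0.21 (SE, edgeR adjusted p = 0.911), with overlapping groups. Pmpca, which binds the targeting sequence, was at 136 and 144 CPM against 126 and 121 CPM, and its groups did not overlap. The ratio of Pmpca to Pmpcb CPM was 1.05 and 0.995 with plain oil and 1.003 and 0.704 with ozonated oil, so that only ozonated oil library 2 lay outside the others.

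Among the folding genes, the chaperonin Hspd1, which encodes HSP60, was the most abundant member. Hspd1 was at 1354 and 1271 CPM with plain oil and at 1206 and 1239.5 CPM with ozonated oil, and the groups were separated by a small margin. Its log2 change was -0.10 ± 0.21 (SE, edgeR adjusted p = 0.922). Hspe1, which encodes its lid HSP10, lies head to head with Hspd1 on chromosome 1 and was at 361 and 346 CPM against 322 and 431 CPM. Ozonated oil library 2 was the highest and ozonated oil library 1 the lowest. The ratio of Hspd1 to Hspe1 CPM was 3.75 and 3.68 with plain oil and 3.74 in ozonated oil library 1, and 2.88 in ozonated oil library 2. Both genes, and Hspa9, have annotated pseudogenes, and how reads with several matches were counted is not stated, so their values are uncertain.

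The proteases of the matrix differed from each other. Lonp1, an ATP-dependent protease that degrades oxidised and misfolded proteins, was the single member whose 2 ozonated oil values exceeded both plain oil values. Lonp1 (chromosome 17, 56614297 to 56626903) was at 333 and 352 CPM with plain oil and at 436 and 548 CPM with ozonated oil. The means were 342 ± 13.7 and 492 ± 79.5 CPM, with a log2 change of 0.52 ± 0.21 (SE, edgeR adjusted p = 0.501, unadjusted p = 0.0460). It was higher with each library left out, with log2 changes between 0.34 and 0.65. Clpp, the proteolytic chamber of the second protease, was at 51.4 and 67.8 CPM against 43.1 and 67.6 CPM, and the groups overlapped.

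**Figure D3:**
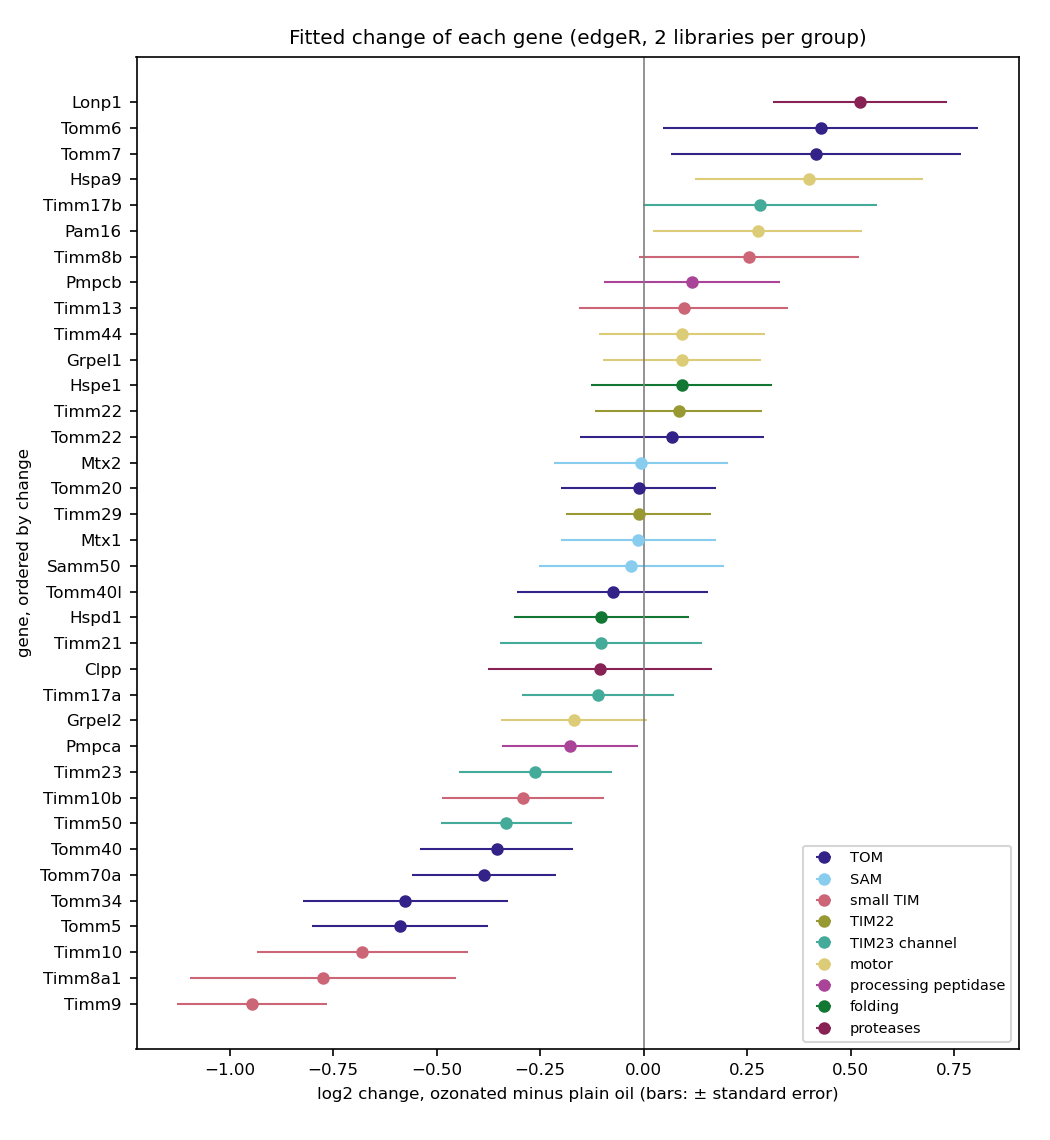
Log2 change of ozonated over plain oil for the 36 protein-coding members, ordered by size and coloured by complex or step, with bars of ± 1 standard error from the edgeR fit. Timm9 is lowest at -0.95 and Lonp1 highest at 0.52, and none of the members had an adjusted p below 0.05.

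Per kilobase of the longest annotated coding transcript, the plain oil levels ran from 542 CPM per kb for Hspd1 to 4.81 for Timm8a1. Hspe1 followed Hspd1 at 456 CPM per kb, then came Hspa9 at 211, Lonp1 at 116, Tomm22 at 113 and Timm8b at 110. The last 3 of these lay within a few units of one another and do not differ beyond the spread between libraries. At the low end stood Timm21 at 10.8, Tomm40l at 8.91 and Grpel2 at 8.54 CPM per kb. With ozonated oil Hspd1 was at 505 and Hspe1 at 487 CPM per kb, Hspa9 at 279 and Lonp1 at 167, so the order of the first 4 was the same on this scale. Timm9 was at 16.9 CPM per kb with plain oil and at 8.75 with ozonated oil. Longest transcripts can include long ends that these cells may not use, which would make the level per kilobase too low.

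Within both groups, library 2 lay higher relative to library 1 among members with shorter transcripts than among longer ones. Members ranged from 518 to 7280 bases, with a median of 2341.5 against 3130 for all tested genes. Over the 36 protein-coding members, the difference between ozonated oil libraries 2 and 1 had a Spearman correlation of -0.48 with length, and that between plain oil libraries 2 and 1 one of -0.49. Over all tested genes with a length these were -0.50 and -0.10. The change between the groups was less tied to length, with -0.12 among the members and -0.11 over all tested genes. These are descriptions over genes that share their libraries. With each library's trend of counts with length and GC content removed, 9 members had an edgeR unadjusted p below 0.05, 8 of them lower. This was 24.3% of the members, against 13.5% of all genes in that fit, and 0 members passed over all genes. The 8 lower ones were Timm9, Timm10, Timm8a1, Timm23, Tomm5, Tomm34, Tomm40 and Tomm70a, and the higher one was Lonp1.

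**Figure D4:**
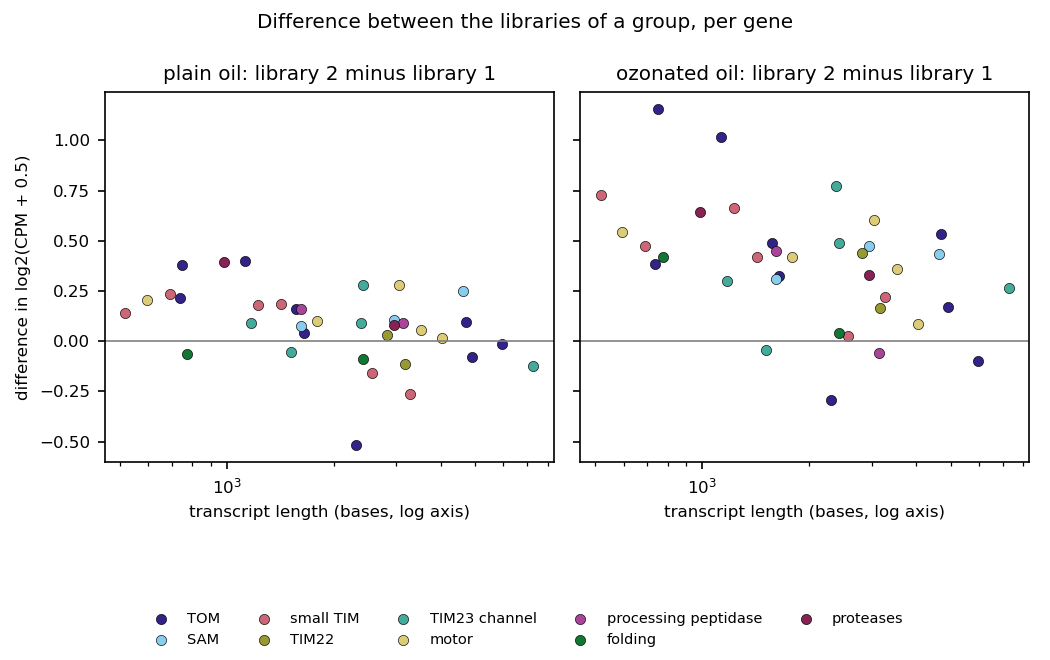
Difference in log2(CPM + 0.5) between library 2 and library 1 of the plain oil group (left) and of the ozonated oil group (right) against transcript length in bases (log axis), 1 point per protein-coding member, coloured by complex or step. Ozonated oil library 2 lies above library 1 for 32 of 36 members, and shorter transcripts lie higher.

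Other genes of the pathway were taken from a list of 33 import partners, peptidases, proteases and scaffolds outside the set, with 9 regulators. Of the 33 partners, 0 passed over all genes with edgeR and 1 with DESeq2, where 0% and 2.14% of all tested genes did. At an edgeR unadjusted p below 0.05, 2 were lower and 1 higher (9.09%, against 9.82% of all tested genes), a share near the background, and the median log2 change was -0.033. Chchd4, which oxidises small TIM proteins and so traps them in the intermembrane space, was at 119 and 94.5 CPM with plain oil and at 62.5 and 48.4 CPM with ozonated oil. The groups did not overlap, with a log2 change of -0.95 ± 0.21 (SE, edgeR adjusted p = 0.262). DESeq2 called Chchd4 with an adjusted p of 0.0247. Htra2, a protease of the intermembrane space that promotes apoptosis when released, was at 95.9 and 85.2 CPM against 61.2 and 58.8 CPM, with a log2 change of -0.59 ± 0.17 (SE, edgeR adjusted p = 0.333). Ghitm, an inner membrane protein, was at 270 and 245 CPM against 327 and 393 CPM, with a log2 change of 0.48 ± 0.20 (SE, edgeR adjusted p = 0.508). The groups did not overlap for either gene.

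Of the 9 regulators, 0 passed over all genes with edgeR. At its unadjusted p below 0.05, 2 were lower and 1 higher (33.3%, against 9.82% of all tested genes), in a list chosen with earlier results known. DESeq2 called 2 of the 9, against 2.14% of all tested genes. Myc, which was lower, had a DESeq2 adjusted p of 6.58e-15 and Ddit3, which was higher, one of 0.000479. Myc, a growth factor-responsive transcription factor, was at 83.9 and 81.5 CPM with plain oil and at 9.47 and 15.8 CPM with ozonated oil, with groups far apart (edgeR adjusted p = 0.166). Its log2 change was -2.71 ± 0.28 (SE), and with any 1 library left out it ran from -3.13 to -2.42. Ddit3, which encodes CHOP, a factor of the mitochondrial unfolded protein response in mammals, was at 15.97 and 28.2 CPM against 51.5 and 153 CPM (edgeR adjusted p = 0.289). The log2 change of Ddit3 was 2.21 ± 0.54 (SE), and with any 1 library left out it ran from 1.21 to 2.76. Ppargc1b, a coactivator of genes for mitochondrial proteins, was at 12.03 and 9.20 CPM against 6.67 and 3.17 CPM (edgeR adjusted p = 0.465). The log2 change of Ppargc1b was -1.11 ± 0.41 (SE), and with any 1 library left out it ran from -1.77 to -0.68. Atf4 and Atf5, stress-responsive factors named here after their values were seen, followed the library number within both groups, as Ddit3 did. Atf4 was at 131 and 415 CPM with plain oil and at 279 and 716 CPM with ozonated oil, and Atf5 at 18.6 and 52.0 CPM against 29.7 and 102 CPM. The part of these regulators in the members' values was not tested.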

How the data were processed

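Gene expression was measured in 4 libraries, 2 per oil. The authors deposited raw read counts per gene as whole numbers in 27179 rows, of which 1319 had no symbol (0.197% to 0.218% of a library's counts). The submitters' processing notes list the aligner HISAT2 2.1.0, StringTie 1.3.4d and edgeR among other tools, and the build mm10. Libraries were made with a directional kit, per the labels' protocols. Which program counted the reads, and with which annotation and strand setting, is not stated. In GENCODE M21, exons of 17 of the 37 members overlap an exon of another gene on the opposite strand, where reads may have been counted together. Counting overlaps on either strand, 19 of the 37 have one. Some overlaps are on the same strand, such as Tomm6 with Gm21981 and Timm10b with Gm45799, where a strand setting does not separate reads.

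Counts were compared by edgeR 4.0.16 (quasi-likelihood F-test, two-sided) in R 4.3.3, with group as the only term. Genes were filtered with filterByExpr, which left 12675 genes and all 37 members, with TMM scaling (trimmed mean of M-values) of the libraries. P-values were adjusted by Benjamini-Hochberg over all genes tested, with a threshold of 0.05. Standard errors were taken from the F statistic. The test was tried on simulated counts with known changes first. They were drawn without a shared replicate pattern or a length trend, and no result here rests on them. With 2 libraries against 2, the smallest p of an exact permutation test is 0.333, and none was run. Libraries of a group differed by more than counting noise (chi-square per degree of freedom 39.0 and 129). Transcript lengths and GC content came from GENCODE M21 and positions from RefSeq GRCm38.p6.

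The members, role groups and lists were chosen with earlier results of these data known. Statistics were given for the 12 members with the smallest p, the member with the highest mean CPM in each role group, and the 6 genes of the wider list with the smallest p. Values of other members are given as CPM, and genes named outside this rule were chosen after their values were seen. Alternatives were DESeq2 1.42.0, its size factors in edgeR, a filter of 1 CPM in 2 libraries, leaving low counts in, the replicate number as a block, removal of length and GC trends, and each library left out in turn.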

Additional observations from a re-analysis of the deposited data

How the results depend on the processing

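Precision is limited by the 2 libraries per group. The count of members passing over all genes was 0 with edgeR and 1 with DESeq2 (Timm9), where 0% and 2.14% of all tested genes passed. In the fits with 1 library left out, the group with a single library borrows its spread from the complete group. The labels do not say that equal replicate numbers share a culture or day, and 2 pairs are too few to decide it from the data. Over all tested genes, the difference between libraries 2 and 1 had a Pearson correlation of 0.53 between the groups. Over the protein-coding members it was 0.78. The main fit has no term for the replicate number, and a shared culture or day was not tested. With the replicate number as a block, 3 members passed (Timm9, Timm10 and Tomm5, 8.11% of the members), where 9.15% of all genes did, and 9 had an unadjusted p below 0.05 (24.3%, against 20.8% of all genes). Of the wider list, Chchd4, Htra2, Myc, Ddit3, Ppargc1b, Atf4 and Atf5 passed in that fit, with adjusted p-values from 6.35e-10 (Myc) to 0.0291 (Htra2). With length and GC trends removed, 9 members had an edgeR unadjusted p below 0.05 (24.3%, against 13.5% of all genes in that fit). With each library left out in turn, the number with an unadjusted p below 0.05 ran from 1 to 12 (from 3.37% to 24.1% of all genes), the median log2 change of the members from -0.22 to 0.14, and the number with groups that did not overlap, which is larger by construction with 3 libraries, from 16 to 34 (from 57.7% to 81.6% of all genes).

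Among named members whose change was near 0, the sign turned in some settings, and the cause was not tested. With length and GC trends removed, the log2 change was 0.017 for Tomm20, 0.087 for Samm50 and -0.027 for Timm13. With each library left out in turn it ran from -0.11 to 0.039 for Tomm20, from -0.27 to 0.14 for Samm50, from -0.28 to 0.36 for Timm13, from -0.16 to 0.26 for Timm22 and from -0.13 to 0.29 for Pmpcb. The other 14 named members kept their direction in every setting run.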
